A study of Mus musculus with 18 samples.

Results

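Transcripts of 9 cytokine genes were followed in mouse eosinophils that met apoptotic cells together with a Type 1 or a Type 2 stimulus. The genes are Tnf, Il6, Osm, Lif, Il10, Il19, Il12b, Il27 and Il15, and each is 1 of the 54446 genes in the deposited table, matched by its Ensembl identifier. The eosinophils came from the peritoneal cavity of Il5Tg mice (strain C57BL/6), which carry an Il5 transgene that drives eosinophil numbers up, so every group shares that transgene. They were purified by depleting T and B cells, cultured for 18 h with apoptotic cells (ACs) and repurified on anti-Siglec-F beads before RNA was taken. The study's methods give a purity above 97% by flow cytometry before use. They also report that purity and viability were checked by flow cytometry in all samples after the culture. The ACs were wild-type thymocytes killed with dexamethasone, and every library analysed here had them, at 5 per eosinophil. In the Type 1 experiment eosinophils had no further stimulus (ACs), bacteria (E. coli + ACs), the Type 1 cytokine (IFN-γ + ACs) or both, with IFN-γ given before the bacteria (IFN-γ + E. coli + ACs). In the IL-4 experiment they had no further stimulus (ACs) or the Type 2 cytokine (IL-4 + ACs). Each of the 6 groups has 3 libraries, which the study's methods call biological replicates, and each stimulus is set against the ACs of its own experiment. Eosinophils that met no ACs are not analysed here.

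TNF is a trimeric cytokine that starts inflammation through a pair of receptors that signal to NF-κB. IL-6, oncostatin M and LIF signal through the shared receptor chain gp130, encoded by Il6st, to STAT3. IL-10 restrains inflammatory gene expression, and IL-19 belongs to the same family but uses the IL-20 receptor chains. IL-12, IL-23 and IL-27 are built of paired subunits: Il12b encodes the p40 chain shared by IL-12 and IL-23, and Il27 encodes the p28 chain of IL-27, which pairs with the product of Ebi3. IL-15, displayed on IL-15Rα, sustains NK cells and memory T cells. Bacterial products raise many of these genes in phagocytes through Toll-like receptors and NF-κB, IFN-γ acts through its receptor and interferon regulatory factors, and eosinophils are known as a source of stored and newly made cytokines.

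Values are reads per gene divided by a size factor of the library (normalized count), and CEL-Seq2 counts the 3′ ends of transcripts. In the Type 1 experiment each library had 2216917 to 5078760 reads on genes. In the IL-4 experiment the replicate 3 libraries were shallow, with 849705 reads for IL-4 + ACs and 779421 for ACs, so that 1 read stands for a normalized count of 5.14 and 5.36. The eosinophil surface markers Siglecf and Ccr3 were high in every library, with lowest values of 1514 and 2623, whereas the granule gene Epx lay between 0 and 25.7. Epx, Prg3 and Ear1 did not enter the Type 1 fit described below, and the other 7 of 10 eosinophil markers did. With IFN-γ 3 of the 7 were lower and 0 higher, beside 1013 and 1160 of all 10166 transcripts. Siglecf was among the 3, at -0.99 ± 0.10 (log2, SE; limma, adjusted p = 5.5e-07). With E. coli 1 was higher and 1 lower, and with both stimuli 1 was higher and 2 lower. The 12 macrophage markers were all above 0 in every library, and their summed normalized count ranged from 17080 to 22049 with ACs, from 8830 to 11574 in E. coli + ACs, from 27260 to 38667 in IFN-γ + ACs and from 9670 to 10773 in IFN-γ + E. coli + ACs. In the IL-4 experiment that sum ranged from 29256 to 45100 with ACs and from 21735 to 37712 with IL-4 + ACs. The summed 10 eosinophil markers ranged from 8462 to 8810, 9787 to 10990, 5473 to 6388 and 8278 to 9693 in the 4 Type 1 groups in the same order. The 12 thymocyte and T cell markers summed to between 45.5 and 180.3 over the 18 libraries. The 5 NK cell markers were at 0 in all 12 Type 1 libraries. The 6 dendritic cell markers summed to between 293 and 316 with ACs, 531 and 603 in E. coli + ACs, 368 and 466 in IFN-γ + ACs, and 442 and 567 with both stimuli. The 8 neutrophil markers summed to between 1561 and 1846, 1889 and 2306, 1879 and 2378, and 1000 and 1256 in that order, and the 7 mast cell and basophil markers to at most 66.5. B cell markers summed to at most 90.8. Not every marker was seen: in the Type 1 libraries 4 to 7 of the 8 neutrophil markers and 3 to 6 of the 6 dendritic cell markers were above 0. In these bulk libraries a change in the share of a cell type and a change of RNA per cell cannot be told apart, and the part of macrophage, dendritic cell and neutrophil transcripts in the cytokine results was not tested.

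**Figure D1:**
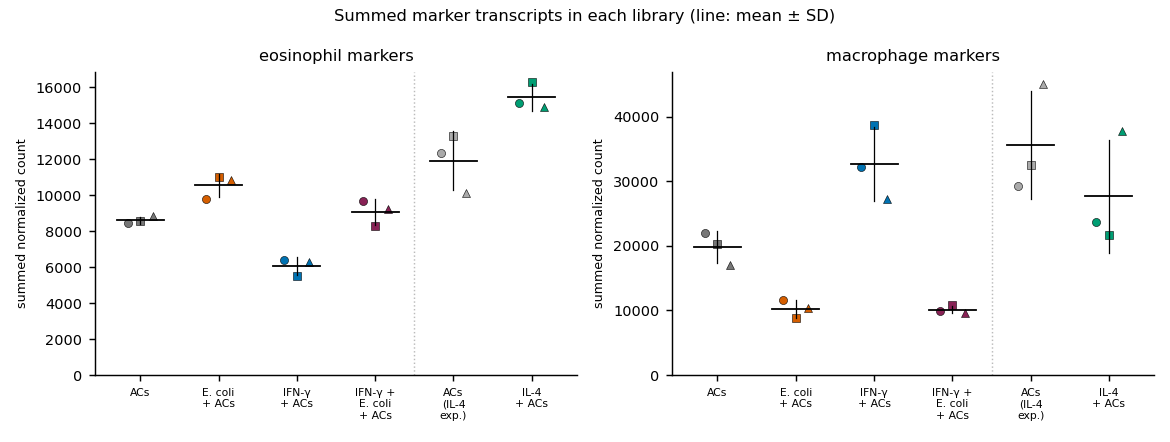
Summed normalized count of the 10 eosinophil markers (left) and the 12 macrophage markers (right) in each of the 18 libraries, by group. Points are libraries and lines are the mean ± SD (n = 3). Within the Type 1 experiment the macrophage sum lay below the ACs libraries in both groups with E. coli, at 8830 to 11574, and above them in IFN-γ + ACs, at 27260 to 38667.

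Among the genes that entered the fits described below, the cytokines that rose with E. coli were Il19, Il10, Tnf, Il27 and Il6. With IFN-γ they were Il10, Il15 and Il27, and with both stimuli Il19, Il27, Tnf, Il6, Il10 and Il15. With IL-4 the cytokine that passed the test was Il6, which rose. Of the 9 genes, 7 reached the mean normalized count of 10 needed to enter the Type 1 fit and 6 the IL-4 fit. Il19 reached it in the Type 1 experiment through the groups with E. coli, so its passing the filter was tied to its rise. Il12b and Lif stayed below it and are described by their reads. For Il12b the pooled reads were 30 in IFN-γ + ACs and 27 with both stimuli, against 2 with ACs.

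Calls rest on limma with Benjamini-Hochberg adjustment over all transcripts tested, with both an adjusted p under 0.05 and at least a 1.5-fold change. In E. coli + ACs over ACs, 5 of the 7 tested genes were higher, where 5.05% of all 10166 transcripts tested were. In IFN-γ + ACs over ACs, 3 of 7 were higher, beside 11.4% of all transcripts. In IFN-γ + E. coli + ACs over ACs, 6 of 7 were higher, beside 14.7%. The median log2 fold change of the 7 genes was 1.44, 0.62 and 1.75 in these comparisons, against medians between -0.05 and 0.00 over all transcripts. In IL-4 + ACs over ACs, 1 of 6 was higher, beside 0.74% of 10669 transcripts. The 3 Type 1 comparisons share the same ACs libraries and are not independent of each other. The cytokines and the other gene lists were chosen with earlier results of these data known. Counts set beside all transcripts, here and for those lists, are thus a description and not a test of enrichment. Il19 is among the 5 and the 6. It entered the fit through its rise with E. coli, so these counts, and later ones that include Il19, are tied in part to the filter.

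**Figure D2:**
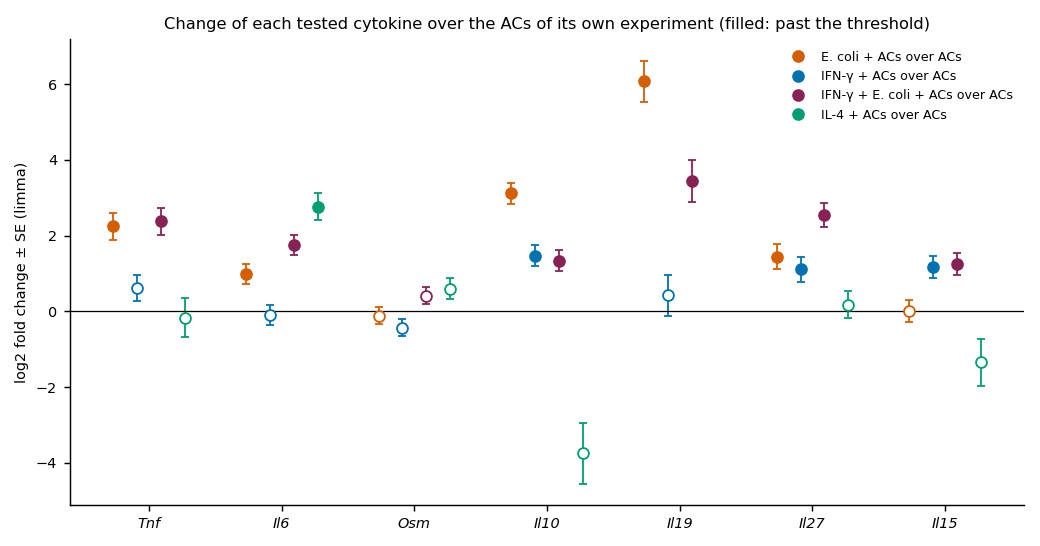
Log2 fold change ± SE from limma (y axis) of the 7 tested cytokines (x axis) for each stimulus over the ACs of its own experiment. Filled points passed the threshold and open points did not. Il19 with E. coli is the highest point, at 6.07 ± 0.55, and Il10 with IL-4 the lowest, at -3.75 ± 0.80, which did not pass.

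**Figure D3:**
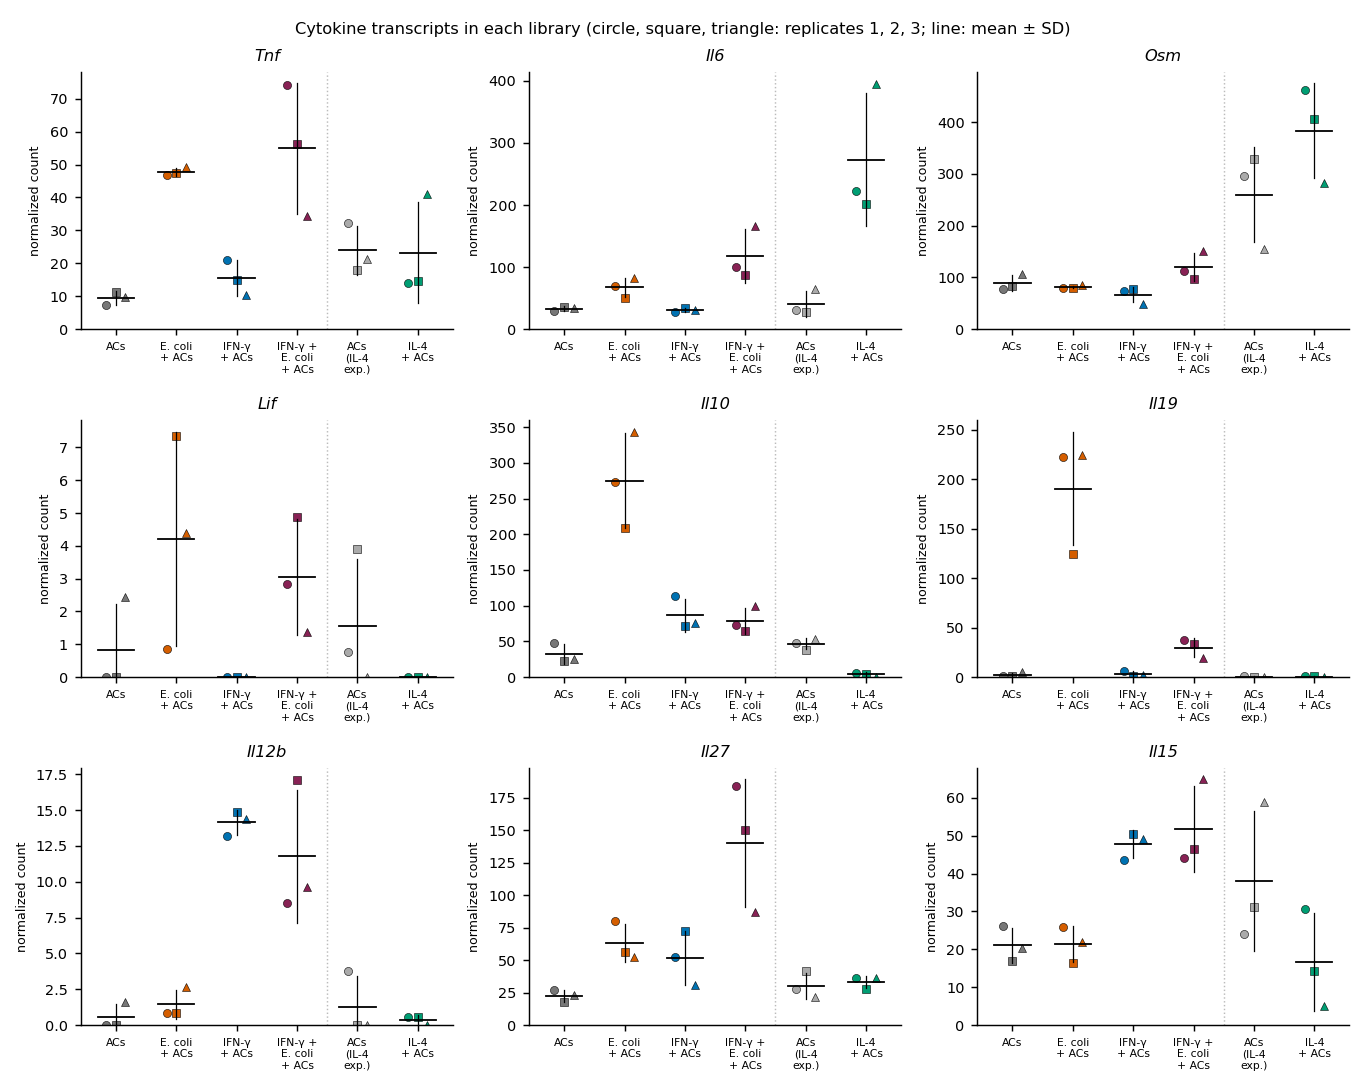
Normalized count (y axis, linear, own scale in each panel) of the 9 cytokines in each of the 18 libraries, with the mean ± SD of each group (n = 3). The dotted line separates the Type 1 experiment from the IL-4 experiment. Within the Type 1 experiment Il10 and Il19 were highest in E. coli + ACs, at 209 to 343 and 124 to 224. Within the IL-4 experiment Il6 was higher in IL-4 + ACs, at 202 to 396, the top value being that of the shallow replicate 3 library (77 reads).

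Tnf (ENSMUSG00000024401.14, GRCm38 chr17:35199381-35202007, minus strand) encodes tumor necrosis factor. Its normalized counts were 7.32, 11.26 and 9.79 with ACs, 46.88, 47.42 and 49.26 in E. coli + ACs, 21.10, 14.90 and 10.26 in IFN-γ + ACs, and 74.13, 56.19 and 34.49 in IFN-γ + E. coli + ACs. All 6 libraries with E. coli lay above all 6 without, while the IFN-γ + ACs libraries overlapped those with ACs and the 2 groups with E. coli overlapped each other. The rise over ACs was 2.24 ± 0.36 (log2, SE) with E. coli (limma, adjusted p = 0.00021) and 2.37 ± 0.36 with both stimuli (adjusted p = 3.0e-05). IFN-γ alone gave 0.62 ± 0.36 (adjusted p = 0.22), and adding IFN-γ to E. coli gave 0.13 ± 0.36 (adjusted p = 0.83). Within the combined group Tnf spread from 34.49 to 74.13, against 46.88 to 49.26 with E. coli alone.

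Among the gp130 cytokines, Il6 (ENSMUSG00000025746.11, chr5:30013114-30019981, plus strand) rose with bacteria and Osm did not pass over ACs. Il6 was at 29.27, 35.66 and 34.25 with ACs, 69.48, 50.69 and 81.81 in E. coli + ACs, 27.70, 34.39 and 30.78 in IFN-γ + ACs, and 99.78, 86.73 and 166.94 with both. Every library with E. coli lay above every library without it, the combined group lay above E. coli + ACs, and IFN-γ + ACs overlapped ACs. The log2 fold change over ACs was 0.98 ± 0.27 with E. coli (limma, adjusted p = 0.0187) and 1.75 ± 0.27 with both stimuli (adjusted p = 3.8e-05). IFN-γ alone gave -0.09 ± 0.27 (adjusted p = 0.84). The combination was above E. coli alone by 0.77 ± 0.27 (adjusted p = 0.0428). The E. coli call lost its significance without ACs replicate 1 (adjusted p = 0.0753) or 3 (0.0501), or without E. coli + ACs replicate 1 (0.0702) or 3 (0.102), and with all 18 libraries in one fit (0.0567).

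Osm (ENSMUSG00000058755.3, chr11:4236420-4241026, plus strand) encodes oncostatin M. Its normalized counts were 78.07, 83.52 and 106.02 with ACs, 80.37, 79.30 and 84.45 in E. coli + ACs, 73.87, 76.80 and 49.25 in IFN-γ + ACs, and 112.61, 97.72 and 150.39 with both. The combined group was above both single-stimulus groups without overlap, and overlapped ACs. The IFN-γ + ACs libraries lay below those of ACs and of E. coli + ACs, also without overlap. Their change over ACs was -0.43 ± 0.22 (log2, SE; limma, adjusted p = 0.166) and did not pass. Over IFN-γ + ACs the combined group was higher by 0.85 ± 0.22 (log2, SE; limma, adjusted p = 0.0106), a call lost without IFN-γ + E. coli + ACs replicate 3 (adjusted p = 0.0533). Over ACs it was higher by 0.42 ± 0.22 (adjusted p = 0.147). Lif (ENSMUSG00000034394.14, chr11:4257557-4272514, plus strand), which lies 16530 bases from Osm, was near the limit of detection, with 0, 0 and 3 reads with ACs, 1, 9 and 5 in E. coli + ACs, 0 in all 3 IFN-γ + ACs libraries, and 2, 4 and 1 with both. Its pooled reads were 4.95 times those of ACs with E. coli (95% counting interval 1.40 to 26.7). That interval leaves out the spread between libraries, and the libraries of these 2 groups overlapped. Set against a floor of 3 reads over the IFN-γ + ACs group, the E. coli value was 2.98-fold higher. The error of the 15 pooled reads with E. coli is left out of that fold. With the filter on low values dropped, limma gave an adjusted p of 0.249 for Lif in E. coli + ACs over ACs.

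In the IL-10 family, Il10 and Il19 rose most with E. coli alone and less with IFN-γ + E. coli. Il10 (ENSMUSG00000016529.5, chr1:131019845-131024974, plus strand) was at 47.98, 22.52 and 25.28 with ACs, 272.91, 209.29 and 343.06 in E. coli + ACs, 113.44, 71.07 and 75.93 in IFN-γ + ACs, and 72.70, 64.74 and 99.34 with both. The 3 E. coli + ACs libraries lay above all others, the groups with IFN-γ overlapped each other, and both lay above ACs. Exact permutation tests of 3 against 3 libraries cannot give a two-sided p below 0.10. Over ACs the log2 rise was 3.12 ± 0.28 with E. coli (limma, adjusted p = 2.8e-07), 1.46 ± 0.28 with IFN-γ (adjusted p = 0.00059) and 1.34 ± 0.28 with both (adjusted p = 0.00089).

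Il19 (ENSMUSG00000016524.12, chr1:130932656-130940115, minus strand) lies 79729 bases from Il10 and is read from the other strand. Its normalized counts were 0.81, 0.94 and 4.89 with ACs, from 1, 1 and 6 reads, and 222.68, 124.27 and 224.31 in E. coli + ACs. With IFN-γ + ACs they were 6.60, 1.15 and 2.05, and with both stimuli 37.06, 32.98 and 19.32. The groups with E. coli lay above those without, and the combined group lay below E. coli alone, with no overlap in either case. The log2 rise over ACs was 6.07 ± 0.55 with E. coli (limma, adjusted p = 2.8e-07) and 3.44 ± 0.55 with both (adjusted p = 5.7e-05). IFN-γ alone gave 0.42 ± 0.55 (adjusted p = 0.617). The means of Il19 without E. coli rest on a handful of reads, so the fold over ACs carries their counting error.

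Il10 and Il19 were the 2 of 7 genes whose response to E. coli differed between eosinophils with and without IFN-γ, where 7.76% of all transcripts had an interaction at an adjusted p under 0.05 (789 transcripts, and 401 to 1076 with 1 library left out). Without IFN-γ, E. coli raised Il10 by 3.12 (log2), and with IFN-γ the change was -0.13 ± 0.28 (limma, adjusted p = 0.79). The difference of these effects was -3.25 ± 0.40 (adjusted p = 3.7e-05). For Il19 the E. coli effect was 6.07 without and 3.01 ± 0.55 with IFN-γ (adjusted p = 0.00065), and their difference -3.06 ± 0.77 (adjusted p = 0.0195). The Il19 difference did not pass with edgeR on the recovered reads (adjusted p = 0.0591), nor without ACs replicate 2 (0.0506), E. coli + ACs replicate 1 (0.0776) or E. coli + ACs replicate 3 (0.0713), nor with all 18 libraries in one fit (0.0757). For Tnf, Il6, Il27, Il15 and Osm the interaction was -0.49 ± 0.50, 0.86 ± 0.38, -0.01 ± 0.45, 0.08 ± 0.41 and 0.96 ± 0.31, and each missed the threshold (adjusted p = 0.63, 0.18, 0.99, 0.94 and 0.067). The Osm interaction passed with DESeq2 on the recovered reads (adjusted p = 0.0329) and without IFN-γ + E. coli + ACs replicate 2 (limma, adjusted p = 0.0356).

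**Figure D4:**
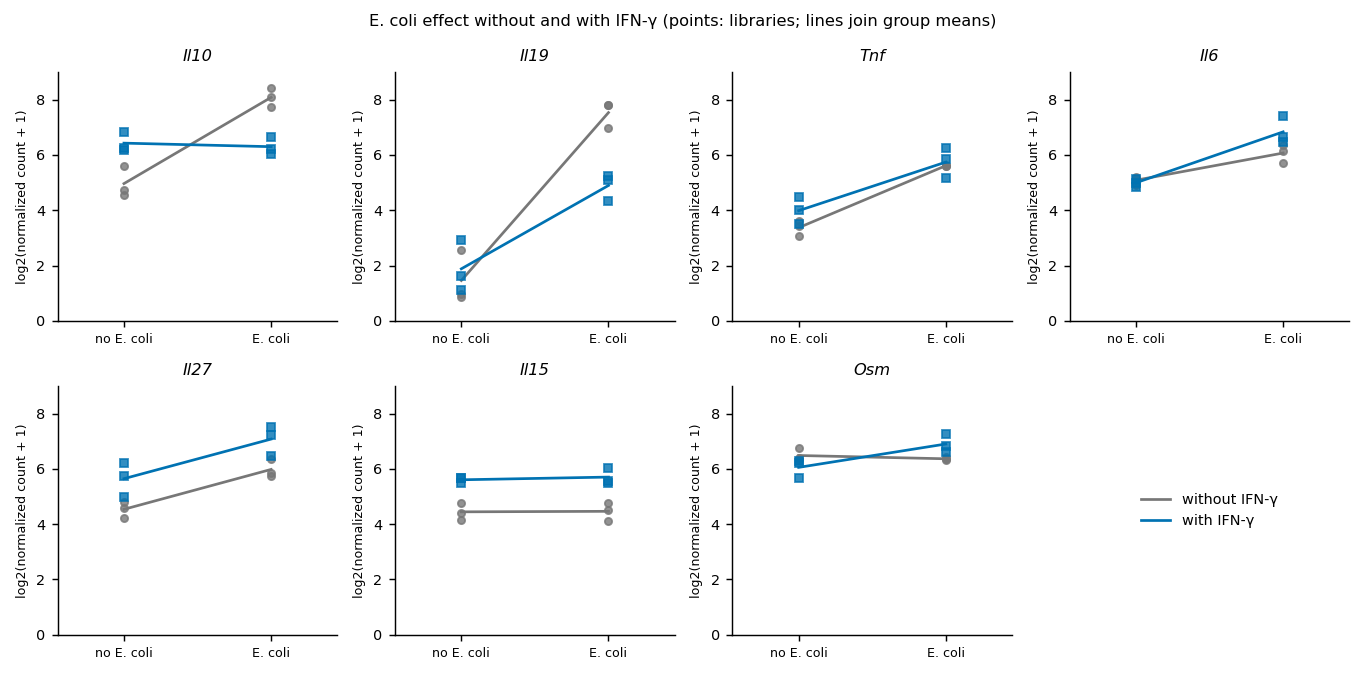
Log2(normalized count + 1) of the 7 tested cytokines without and with E. coli (x axis), in eosinophils without IFN-γ (grey circles) and with IFN-γ (blue squares). Points are libraries and lines join group means (n = 3). For Il10 the line rises by 3.12 without IFN-γ and is near level with it, at -0.13, while the Il27 and Il15 lines run nearly parallel.

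Against E. coli alone, the combination moved the cytokines in both directions. In IFN-γ + E. coli + ACs over E. coli + ACs, 3 of 7 genes were higher, beside 9.79% of all transcripts, and 2 were lower, beside 9.57%. Il15, Il27 and Il6 were higher by 1.24 ± 0.29, 1.10 ± 0.32 and 0.77 ± 0.27 (limma, adjusted p = 0.0043, 0.0173 and 0.0428). Il10 was lower by -1.78 ± 0.28 (adjusted p = 0.00012) and Il19 by -2.64 ± 0.55 (adjusted p = 0.0016). The Il6 call was lost without E. coli + ACs replicate 1 (limma, adjusted p = 0.0855) or 2 (0.183) and without IFN-γ + E. coli + ACs replicate 1 (0.0546) or 3 (0.227). The Il27 call was lost without E. coli + ACs replicate 2 (0.0595) or 3 (0.0767) or IFN-γ + E. coli + ACs replicate 1 (0.0899), and the Il15 call with all 18 libraries in one fit (0.0556).

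Against IFN-γ alone, 5 of 7 genes were higher in the combination, beside 5.96% of all transcripts. These were Il19, Il6, Tnf, Il27 and Osm, with log2 changes of 3.01, 1.84, 1.76, 1.43 and 0.85. Il10 and Il15 changed by -0.13 ± 0.28 and 0.10 ± 0.29 (limma, adjusted p = 0.79 and 0.85). Between the single stimuli, 4 of 7 genes were higher with E. coli than with IFN-γ, beside 6.72%, and 1 was lower, beside 9.84%. Il19, Il10, Tnf and Il6 were higher by 5.65, 1.66, 1.63 and 1.07, and Il15 was lower by -1.14 ± 0.29 (limma, adjusted p = 0.0080). The Il15 call was lost without E. coli + ACs replicate 2 (adjusted p = 0.0505) and with all 18 libraries in one fit (0.0916).

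Among the subunits of the IL-12 family, Il27 rose with E. coli, with IFN-γ and with both. Il27 (ENSMUSG00000044701.5, chr7:126589010-126594941, minus strand) was at 26.84, 17.83 and 22.84 with ACs, 80.37, 56.41 and 52.78 in E. coli + ACs, 52.76, 72.21 and 30.78 in IFN-γ + ACs, and 183.89, 150.25 and 86.92 with both. The order was both stimuli, then the single stimuli, which overlapped, then ACs, with no overlap between these 3 levels. Over ACs the log2 rise was 1.44 ± 0.32 with E. coli (limma, adjusted p = 0.0045), 1.11 ± 0.32 with IFN-γ (adjusted p = 0.0147) and 2.54 ± 0.32 with both (adjusted p = 4.3e-06). The IFN-γ call was lost without ACs replicate 2 (adjusted p = 0.0664) or IFN-γ + ACs replicate 2 (0.0874). Il27 overlaps Apobr, the apolipoprotein B receptor gene on the other strand, and the strand setting of the counting is not given in the sources used here. Apobr ranged from 743 to 871 with ACs, 961 to 1020 in E. coli + ACs, 507 to 591 in IFN-γ + ACs and 466 to 793 with both. The part of Apobr reads in the Il27 counts was not tested.

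Il12b (ENSMUSG00000004296.14, chr11:44400063-44414033, plus strand), the p40 chain, was near the limit of detection without IFN-γ. It had 0, 0 and 2 reads with ACs and 1, 1 and 3 in E. coli + ACs, against 10, 13 and 7 in IFN-γ + ACs and 6, 14 and 7 with both. As normalized counts these were 0, 0 and 1.63, then 0.84, 0.82 and 2.64, then 13.19, 14.90 and 14.36, and then 8.55, 17.10 and 9.66. All 6 libraries with IFN-γ lay above all 6 without, and the groups with and without E. coli overlapped in both cases. Pooled reads were 24.9 times those of ACs with IFN-γ (95% counting interval 6.33 to 215.4) and 21.2 times with both (5.32 to 183.8). With the filter on low values dropped, limma gave adjusted p = 0.0014 and 0.0021 for these rises. The partner chains of p40 in IL-12 and IL-23, Il12a and Il23a, had at most 3 reads in any library.

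Il15 (ENSMUSG00000031712.10, chr8:82331632-82403222, minus strand) was higher in both groups with IFN-γ. It was at 26.02, 16.89 and 20.39 with ACs, 25.95, 16.35 and 21.99 in E. coli + ACs, 43.53, 50.43 and 49.25 in IFN-γ + ACs, and 44.19, 46.42 and 64.85 with both. The 6 libraries with IFN-γ lay above the 6 without, and E. coli left each pair of groups overlapping. The log2 change over ACs was 1.16 ± 0.29 with IFN-γ (limma, adjusted p = 0.0057), 1.26 ± 0.29 with both (adjusted p = 0.0021) and 0.02 ± 0.29 with E. coli (adjusted p = 0.98). With all 18 libraries in one fit the IFN-γ call was lost (adjusted p = 0.0677). The macrophage marker sum was also above ACs in IFN-γ + ACs (27260 to 38667 against 17080 to 22049) and was at 9670 to 10773 with both stimuli, and its part in the Il15 and Il12b results was not tested.

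IL-4 gave another pattern: Il6 rose, and Il10 had values below all those with ACs. Il6 was at 30.08, 27.25 and 64.34 with the ACs of that experiment and 222.47, 201.81 and 395.77 with IL-4 + ACs, from 384, 383 and 77 reads. The groups did not overlap, and the log2 rise was 2.76 ± 0.36 (limma, adjusted p = 0.0057). It was 2.84 with both shallow replicate 3 libraries left out (adjusted p = 3.5e-06), an alternative chosen after seeing the data.

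Il10 was at 47.37, 38.15 and 53.61 with ACs and 6.37, 4.74 and 0 with IL-4 + ACs, from 63, 49 and 10 against 11, 9 and 0 reads. The groups did not overlap, but the log2 change of -3.75 ± 0.80 did not pass (limma, adjusted p = 0.072). The 0 was in the shallow library, where 3 reads stand for a normalized count of 15.4. Il10 reached the mean needed for this fit through the ACs libraries, at a mean of 46.4 against 3.70 in IL-4 + ACs. Its passing the filter was thus tied to its level with ACs. Without that IL-4 + ACs replicate 3 library the change was -2.85 and passed (adjusted p = 0.0227), and with both shallow libraries left out it was -2.74 (adjusted p = 0.0010). On the recovered reads edgeR gave -3.08 (adjusted p = 0.0012) and DESeq2 -3.17 (adjusted p = 2.7e-05), while the fit with the replicate number as a block gave an adjusted p of 0.16. Over all settings tried the change ranged from -4.29 to -2.63 and the adjusted p from 2.7e-05 to 0.335, the highest without ACs (IL-4 experiment) replicate 1.

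The other cytokines did not pass with IL-4. Osm was at 295.52, 329.31 and 155.48 with ACs and 462.91, 405.73 and 282.70 with IL-4 + ACs, which overlapped (log2 change 0.60 ± 0.29, limma, adjusted p = 0.55). Il15 was at 24.06, 31.14 and 58.98 against 30.71, 14.23 and 5.14 (-1.34 ± 0.62, adjusted p = 0.53), the last of them from 1 read. Tnf was at 32.33, 17.91 and 21.45 against 13.90, 14.75 and 41.12, and Il27 at 27.82, 41.26 and 21.45 against 35.92, 27.93 and 35.98. For these 2 genes the log2 changes were -0.17 ± 0.51 and 0.18 ± 0.36. Il19, Il12b and Lif had at most 5 reads in any library of this experiment. The ACs libraries of the 2 experiments stood apart for Osm, at 78.07 to 106.02 in the Type 1 experiment and 155.48 to 329.31 in the IL-4 experiment, and for Tnf, at 7.32 to 11.26 and 17.91 to 32.33. Levels across experiments are given side by side, since stimulus and experiment cannot be told apart there.

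Promoter sequences from RefSeq on GRCm38.p6 were matched for 5 of the 9 genes by symbol, Tnf, Il6, Il19, Il12b and Lif, and not for Il10, Il15, Il27 and Osm. Those of Tnf, Il6 and Il19 are shown because these 3 genes rose together with E. coli. Each runs from 250 bases before to 50 bases after the transcription start, 5′ to 3′ on the strand of the gene. Capitals mark matches, on either strand, to GGGNNNTTCC (an NF-κB form), TTCNNNGAA (a STAT form, GAS), GAAANNGAAA (an interferon-stimulated response element form) and TGANTCA (an AP-1 form). No marked match overlaps another.

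Tnf, chr17:35201958-35202257, minus strand: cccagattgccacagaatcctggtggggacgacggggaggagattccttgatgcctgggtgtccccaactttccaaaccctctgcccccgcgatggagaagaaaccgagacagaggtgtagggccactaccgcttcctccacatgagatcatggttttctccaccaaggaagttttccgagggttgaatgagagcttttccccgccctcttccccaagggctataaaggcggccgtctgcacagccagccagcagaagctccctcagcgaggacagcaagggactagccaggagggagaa
Il6, chr5:30012864-30013163, plus strand: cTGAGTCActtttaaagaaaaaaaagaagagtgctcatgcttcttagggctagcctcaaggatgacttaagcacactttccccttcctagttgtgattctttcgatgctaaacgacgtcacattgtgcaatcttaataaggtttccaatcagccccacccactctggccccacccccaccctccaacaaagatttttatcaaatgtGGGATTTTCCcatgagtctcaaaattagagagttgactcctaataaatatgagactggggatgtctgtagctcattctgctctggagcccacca
Il19, chr1:130940066-130940365, minus strand: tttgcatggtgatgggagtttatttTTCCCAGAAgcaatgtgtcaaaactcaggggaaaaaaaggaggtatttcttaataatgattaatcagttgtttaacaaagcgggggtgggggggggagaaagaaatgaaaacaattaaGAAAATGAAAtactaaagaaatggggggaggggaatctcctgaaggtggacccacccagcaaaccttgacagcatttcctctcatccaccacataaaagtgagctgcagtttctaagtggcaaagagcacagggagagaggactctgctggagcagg

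The Il6 window holds GGGATTTTCC, which starts 44 bases before the transcription start, and TGAGTCA, which starts 249 bases before it. The Il19 window holds TTCCCAGAA and GAAAATGAAA, starting 225 and 107 bases before the start. The Tnf and Il12b windows hold none of the 4 forms, and that of Lif holds TGACTCA, starting 228 bases before the start. Of 32851 promoter windows of this length, 5.56% hold GGGNNNTTCC, 8.30% TTCNNNGAA, 3.44% GAAANNGAAA and 7.81% TGANTCA. A match describes these letters only, and a window without one says nothing about binding elsewhere.

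Relatives of the 9 genes were mostly silent. Of 15 listed, 4 entered the Type 1 fit. Ebi3, the partner chain of the Il27 product, rose by 1.36 ± 0.13 (log2, SE) with E. coli and 1.35 ± 0.13 with both stimuli (limma, adjusted p = 4.3e-07 and 9.0e-08), from a mean of 360 ± 26.2 (SD, n = 3) with ACs to 924 ± 35.7 and 924 ± 147. With IFN-γ alone it was at 378 ± 20.6 and was not called. Ltb, which encodes lymphotoxin β and neighbours Tnf in the genome, fell by 0.88 with E. coli, 2.33 with IFN-γ and 2.48 with both on the log2 scale, from 194 ± 32.4 to 105 ± 19.1, 37.9 ± 6.67 and 35.6 ± 13.7. Il11, another gp130 cytokine, fell by 1.33 with both stimuli (adjusted p = 0.0246). Il20 and Il24, which belong to the IL-10 family, were at 0 in all 18 libraries.

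Of 18 receptor chains, 12 entered the Type 1 fit. Il6st, Il6ra and Lifr were lower in the groups with E. coli, and Lifr was lower with IFN-γ alone as well. With E. coli 1 of the 12 rose and 3 fell (513 and 534 of all 10166 transcripts), and with both stimuli 4 rose and 3 fell (1494 and 1746). Their median log2 fold change was -0.12 with E. coli, 0.65 with IFN-γ and 0.45 with both. With E. coli, Il6st, Il6ra and Lifr fell by 1.32, 0.89 and 0.79 on the log2 scale (limma, adjusted p = 0.0019, 0.0411 and 0.0021), and the chain that rose was Tnfrsf1b, which encodes a TNF receptor, by 1.71 ± 0.13. With both stimuli Il6ra, Il6st and Lifr fell by 1.98, 1.58 and 1.41. Il27ra changed by -0.03 with E. coli and -1.02 with both (limma, adjusted p = 0.99 and 0.16). Osmr had 5 pooled reads with ACs, 9 in E. coli + ACs and 0 with both. The mean of Il6st was 124 ± 27.9 (SD, n = 3) with ACs, 48.4 ± 2.30 in E. coli + ACs, 116 ± 24.1 in IFN-γ + ACs and 41.9 ± 15.8 with both.

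With IFN-γ, 5 of the 12 chains rose and 1 fell (1160 and 1013 of all transcripts). Il12rb1, a chain of the IL-12 and IL-23 receptors, rose by 3.74 ± 0.58 (log2), from 2.26 ± 0.88 to 43.0 ± 14.0, and Il15ra, which presents IL-15, by 1.25 ± 0.12, from 480 ± 25.7 to 1148 ± 125. Tnfrsf1b, Il2rg and Tnfrsf1a rose by 1.58, 1.12 and 0.87, and Lifr fell by 1.27. Il15 and its presenting chain Il15ra thus both passed with IFN-γ, and with both stimuli at 1.26 and 1.14. Tnfrsf1b had an interaction of -1.64 ± 0.18 (adjusted p = 1.6e-05), with a mean of 341 with ACs and between 1027 and 1118 in the other Type 1 groups. Il10ra and Il10rb, the IL-10 receptor chains, changed by 0.60 (adjusted p = 0.066) and 0.31 (adjusted p = 0.060) with E. coli. In IL-4 + ACs, Il6st was at 196 ± 44.5 against 84.0 ± 43.4 with ACs (log2 change 1.30 ± 0.33, limma, adjusted p = 0.15).

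All 16 listed genes of signalling and feedback entered the Type 1 fit, and 4 rose with E. coli, 9 with IFN-γ and 12 with both (5.05%, 11.4% and 14.7% of all transcripts). Their median log2 fold change was 0.27, 0.63 and 1.24, against medians between -0.05 and 0.00 over all transcripts. This list too was chosen with earlier results of these data known, so these counts and medians are a description only. With E. coli the largest rises were those of Bcl3 and Nfkbiz, nuclear regulators of NF-κB, by 2.06 ± 0.18 and 1.56 ± 0.20 (log2). With IFN-γ they were Irf8 and Irf1, interferon regulatory factors, by 2.56 ± 0.25 and 2.49 ± 0.12, and with both stimuli Irf1 and Bcl3, each by 2.82. Nfkbiz was at 60.3 ± 14.0 with ACs, 179 ± 33.9 in E. coli + ACs, 52.8 ± 2.65 in IFN-γ + ACs and 247 ± 16.4 with both. Irf1 was at 783 ± 44.2, 690 ± 52.4, 4414 ± 242 and 5578 ± 835 in the same order.

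Transcripts with the most similar pattern over the 12 Type 1 libraries were named by Pearson's r of log2(normalized count + 1), as a description, since these libraries share groups, stimuli and depth. For Il10 these were Slpi (r = 0.949), S100a8 (0.937) and Stfa3 (0.921). For Il19 they were Adgrg3 (0.964), Pim2 (0.962) and Tpbpa (0.961), and for Tnf Myl12a (0.969) and Nomo1 (0.962). Il6 was closest to H3f3a (0.951) and Clint1 (0.942), and Il27 to G6pdx (0.979), Pcbp1 (0.972) and Helz2 (0.954). Il15 was closest to Eaf1 (0.960), Serping1 (0.955) and Arid5b (0.954), and Osm to Nup54 (0.934), Pik3cg (0.866) and Pign (0.865). Between the cytokines themselves r was highest for Tnf with Il19 (0.870), Tnf with Il27 (0.843) and Il10 with Il19 (0.813), and it was 0.007 for Il10 with Il15.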

How the data were processed

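CEL-Seq2 libraries, made from 2 ng of RNA and sequenced on a NextSeq 550, were analysed for 18 samples in 6 groups of 3, with groups and replicate numbers taken from the labels. The authors deposited, per gene and library, a signal: the read count divided by a DESeq2 size factor. The methods describe a TopHat2 and HTSeq route and a STAR route on GRCm38, and do not say which gave this table; the submitters' processing notes name TopHat2 2.1.0, HTSeq 0.6.1 and DESeq2 1.26.0. Handling of molecular identifiers and of strand is not given in the sources used here.

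Values were whole multiples of 1 step per library, so whole reads were recovered for 100.0% of values (tolerance 0.1 read); depth ranged from 779421 to 7782072 reads. Of 54446 gene rows, 54409 had a symbol. Intervals cover counting error only, and a fold over the floor (3 reads) leaves out the error of the group set against it. Limma 3.58.1 in R 4.3.3 (eBayes with a trend) was fitted on log2(normalized count + 1), which understates changes of low genes, for genes with a mean of at least 10. The Type 1 contrasts and their interaction came from 12 libraries, and IL-4 from 6. Interactions were called on the adjusted p alone. Calls by limma, edgeR and DESeq2 are Benjamini-Hochberg adjusted over all transcripts tested. The script was tested on simulated data. Alternatives were a pseudocount of 5, no filter, a mean of at least 50, upper-quartile scaling, edgeR 4.0.16, DESeq2 1.42.0, array weights, all 18 libraries, no minimum fold, the replicate number as a block and each library left out. The 9 genes and all lists were chosen with earlier results of these data known. Named by rule were the 9 genes, their receptor chains, the 2 largest rises and falls of each other list over ACs, and the 3 transcripts most similar to each tested gene, some of which are not reported here. Il12a, Il23a, Il20, Il24, Apobr and the marker genes were named outside this rule, after their values were seen. Tables were handled with Python 3.11.15, pandas 2.3.3 and scipy 1.17.1.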

Additional observations from a re-analysis of the deposited data

Results flagged for a closer look

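In 2 genes the E. coli effect differed between eosinophils with and without IFN-γ by a test of the difference itself. For Il10 the E. coli effect with IFN-γ minus that without was -3.25 on the log2 scale (limma, adjusted p = 3.7e-05), from group means of 31.9 ± 14.0 (SD, n = 3) in ACs, 275 ± 66.9 in E. coli + ACs, 86.8 ± 23.2 in IFN-γ + ACs and 78.9 ± 18.1 with both. For Il19 it was -3.06 (limma, adjusted p = 0.0195), from 2.21 ± 2.32, 190 ± 57.3, 3.27 ± 2.92 and 29.8 ± 9.29 in the same order. Il19 entered the fit through its groups with E. coli, so its test is tied in part to the filter. The Il19 difference missed the threshold in 5 of 21 alternative settings, with an adjusted p of up to 0.0776 (limma, without E. coli + ACs replicate 1). Beside these 2 genes, the macrophage marker sum was lower in both groups with E. coli (8830 to 11574 and 9670 to 10773) than with ACs (17080 to 22049) or IFN-γ + ACs (27260 to 38667). Of 12 macrophage markers 7 had an interaction as well, all negative, beside 7.76% of all transcripts. Of 7 tested eosinophil markers 2 had one, both positive. These were Siglecf at 0.53 ± 0.15 and Il5ra at 0.96 ± 0.22 (log2, SE; limma, adjusted p = 0.031 and 0.012). The part of these marker transcripts in the cytokine results was not tested.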

How the results depend on the processing

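Of 855 alternative log2 changes of the 7 tested cytokines, 792 kept their direction and their side of the threshold, 28 lost a call, 11 gained one and 24 that were not called moved or changed sign. No called result reversed. The count of cytokines called in IFN-γ + E. coli + ACs over E. coli + ACs went from 5 to 3 with all 18 libraries in one fit, and from 3 to 5 with 1 library left out, the lower value without E. coli + ACs replicate 2 or IFN-γ + E. coli + ACs replicate 1. In E. coli + ACs over IFN-γ + ACs it was 3 of 5 tested with a mean of at least 50. The interaction count of 2 was 1 with edgeR and with all 18 libraries, 3 with DESeq2, where Osm was added, and 1 to 3 with 1 library left out, the highest without IFN-γ + E. coli + ACs replicate 2. In IL-4 + ACs over ACs it was 2 in place of 1 with a pseudocount of 5, no filter, edgeR, DESeq2, array weights, all 18 libraries and both shallow libraries left out (chosen after seeing the data), and 1 to 2 with 1 library left out, the higher value without IL-4 + ACs replicate 3; the second gene was Il10. The cause of these shifts was not tested. Il6 in IFN-γ + E. coli + ACs over E. coli + ACs missed the threshold with no filter, upper-quartile scaling, array weights and all 18 libraries (adjusted p = 0.0799, 0.0772, 0.0582 and 0.0990).

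Over all transcripts, the IL-4 comparison called 116, against 208 with no filter, 212 with edgeR, 209 with DESeq2, 745 with array weights (52.2% higher, against 68.1%), 221 with all 18 libraries, 74 with the block, 656 with both shallow libraries left out, and 47 to 130 with 1 library left out. The interaction called 789 transcripts, against 507 with all 18 libraries, 508 and 440 without ACs replicate 2 or 3, 401 and 518 without E. coli + ACs replicate 1 or 3, and 486 without IFN-γ + ACs replicate 2. Upper-quartile scaling moved the median of all transcripts to -0.18 in IFN-γ + E. coli + ACs over ACs and -0.15 for the same group over E. coli + ACs, with 34.4% and 36.3% of calls higher against 46.1% and 50.6%. Same-numbered libraries did not deviate together (mean r = 0.005 over 18 Type 1 pairs and 0.01 over 3 IL-4 pairs), so numbers were not taken to pair samples; with the replicate block 5, 3, 6, 5, 5, 5, 2 and 1 cytokines were called in the 8 comparisons, as without it. Replicate 3 of the IL-4 experiment limits low genes, since 3 reads stand for normalized counts of 15.4 and 16.1.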
